A study of Danio rerio with 40 samples.

Results

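The genes described here are 9 zebrafish genes for secreted proteins that are regarded as targets of transforming growth factor beta (TGF-beta), read in whole larvae lacking smad3a, smad3b, smad6a and smad6b. They were taken from the deposited counts by gene name, and each of tgfbi, ccn2a, ccn2b, fn1a, fn1b, thbs1a, thbs1b, postna and postnb matched 1 of the 32520 genes in the table. The mutant group held 5 pools labelled qKO (smad3a-/-;smad3b-/-;smad6a-/-;smad6b-/-), and the control group held 5 pools of wild type cousins. Cousins come from other parents, so in every comparison below family background and genotype cannot be told apart. Each pool combined 5 whole larvae at 5 days post fertilization (dpf), so variation between single animals was not measured. No strain, allele designation or sex was given in the labels. The remaining 30 of the 40 samples, from adult aortas and from the smad3a/b and smad6a/b double knockouts with their own controls, were not analysed here.

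TGF-beta ligands bind paired serine/threonine kinase receptors, which phosphorylate Smad2 and Smad3. These enter the nucleus with Smad4 and act at target genes, many of which encode extracellular matrix. Smad6 is an inhibitory Smad that acts mainly against the related bone morphogenetic protein branch. Fibronectin, periostin and TGFBI are matrix glycoproteins that cells grip through integrins. Periostin, CCN2 (connective tissue growth factor) and thrombospondin 1 are matricellular proteins, which sit in the matrix and modulate signalling more than they bear load. The zebrafish genome carries 2 copies of 4 of these genes, marked a and b.

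Libraries held between 20752303 and 191289475 counts in qKO pools and between 16062147 and 110409906 in control pools. The 9 genes had between 158 and 130529 counts in each library, so all 9 passed the filter on low counts. Levels are given as CPM, the count of a gene relative to the library size after TMM scaling (a factor from the trimmed mean of the log ratios between libraries), without correction for gene length. They can therefore be compared between pools but not between genes. In the qKO pools smad3a and smad3b transcripts were lower (log2 fold change -1.90 and -1.09, adjusted p = 4.17e-07 and 5.11e-06, edgeR). By contrast, smad6a and smad6b transcripts were higher (0.36 and 0.62, adjusted p = 0.0049 and 7.2e-05, edgeR), so for the smad6 pair the genotype rests on the labels. All 12 listed markers of larval organs (muscle, blood, lens, liver, pancreas, neurons, skin, cartilage, heart, vessels and neutrophils) passed the filter. Within each genotype, pools 1 and 2 stood apart from pools 3 to 5. Between these sets, 1107 of 23322 genes differed in qKO and 5358 of 23151 in control pools (adjusted p under 0.05, edgeR). The sets were chosen with earlier results of these data known, so these counts are not a test of the gap. The clock gene nr1d1 stood at 334 to 352 CPM in qKO pools 1 and 2 and at 1.59 to 2.62 CPM in qKO pools 3 to 5, against 8.45 to 8.94 CPM in control pools 1 and 2 and 42.1 to 48.0 CPM in control pools 3 to 5. For nr1d1 the gap between sets thus ran in opposite directions and differed in size, which does not hold for every gene. Sets of the same pool numbers are not shown to correspond across genotypes, also where they are compared or summed here. With the counts of each set summed, smad6a and smad6b did not pass 0.05 (adjusted p = 0.331 and 0.0654, edgeR), whereas smad3a and smad3b did. The labels name no batch for the gap between sets, and the p-values for 5 against 5 pools treat all pools as separate. None of the 9 genes lay within 100 tested genes of a targeted gene, or on the chromosome of one, when genes were ordered as in RefSeq for GRCz12tu, where all 9 were found by name.

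Of the 9 genes, fn1a rose in the qKO larvae, fn1b and postna fell, and the other 6 did not pass the 0.05 threshold on the adjusted p (quasi-likelihood test in edgeR, adjusted by Benjamini-Hochberg over 22894 genes). Across all genes tested, 25.8% passed in either direction, 13.4% higher and 12.5% lower in qKO, so 3 of 9 is close to the background. Of the genes called, 51.7% were higher in qKO, and 67% were with scaling by library totals. The median log2 fold change of the 9 genes was -0.00, beside 0.03 for all genes tested. The rise of fn1a was larger than the changes of its 8 companions in either direction. At least as large a rise was found for 844 of the 22894 genes tested, fn1a included. By absolute log2 fold change, fn1a stood at percentile 88.2 of all genes tested. When the pools of each set were summed, giving 2 sums against 2, 0 of the 9 genes passed (edgeR). Of these genes 1, fn1a, had an unadjusted p under 0.05, and 2.85% of all genes passed. Raw counts were summed, so the deepest libraries weigh most in each sum. Within qKO pools 3 to 5, pool 5 held 191289475 counts and pool 4 held 20752303.

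**Figure D1:**
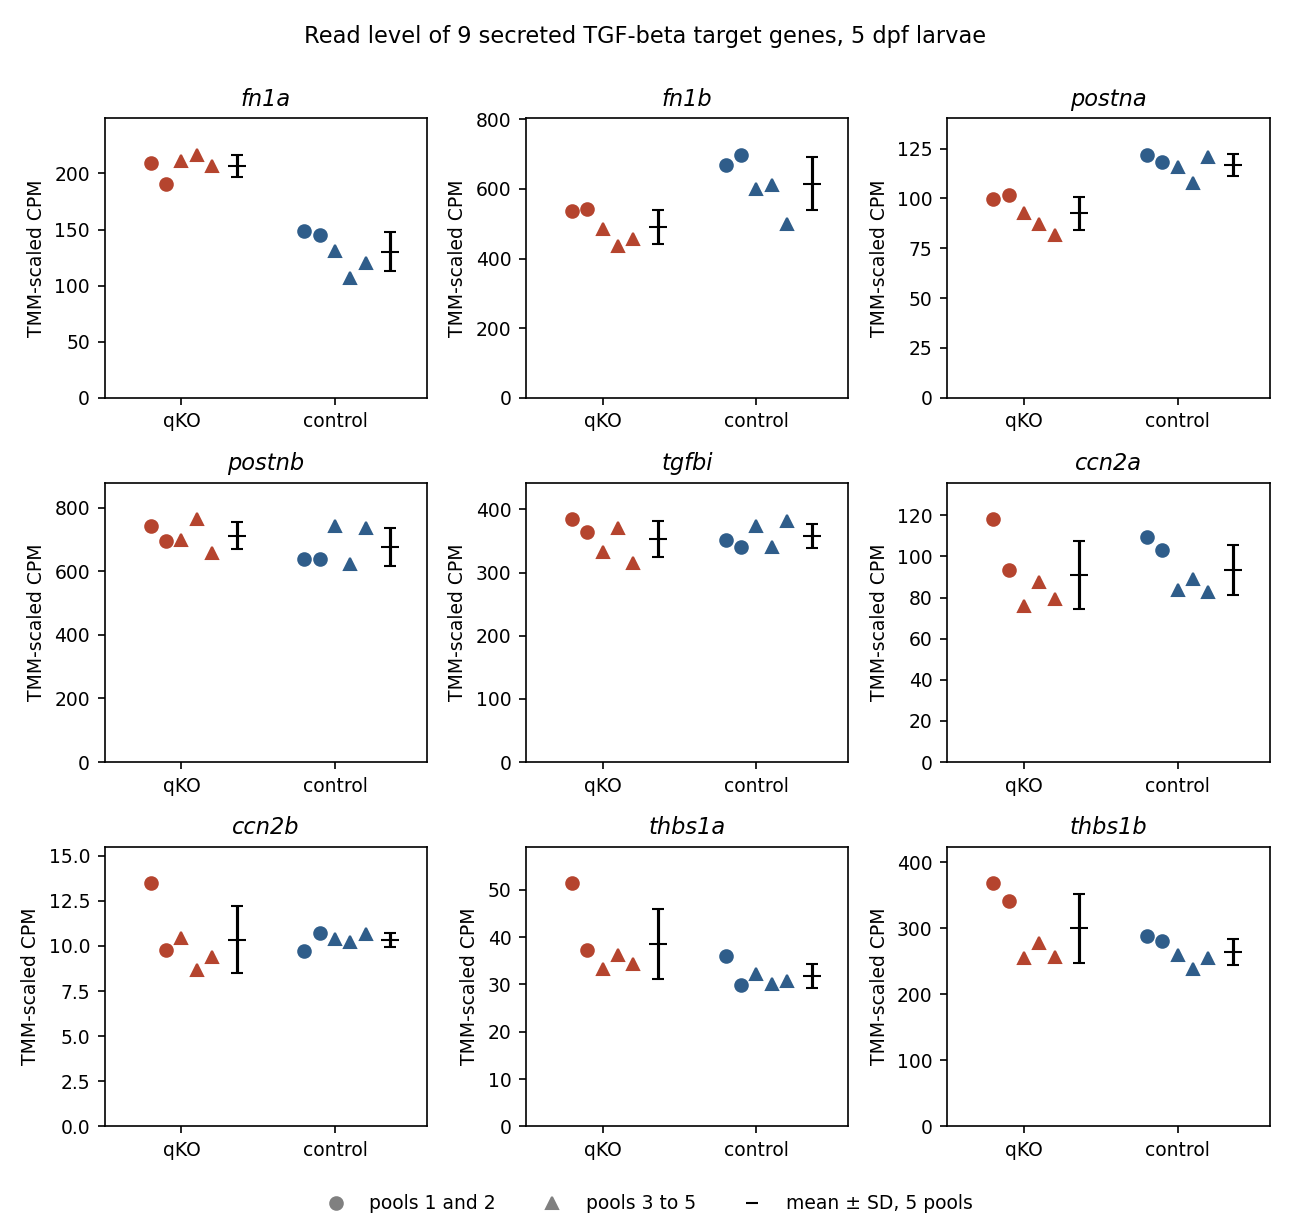
Level of each gene in TMM-scaled CPM (vertical axes, from 0) in the 5 qKO and 5 control pools; circles are pools 1 and 2, triangles pools 3 to 5, and bars the mean ± SD. The qKO pools lie above every control pool for fn1a (191 to 217 against 107 to 149 CPM) and below every control pool for postna, and the genotypes overlap for the other 7 genes. Of all genes tested, 18% had no overlap in either direction.

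Fibronectin is the fibril-forming glycoprotein on which cells assemble early matrix, and its 2 zebrafish copies moved in opposite directions. The level of fn1a (ENSDARG00000019815) was 209.8, 191, 211, 217 and 207 CPM in qKO pools 1 to 5, against 149, 145, 131, 107 and 120.2 CPM in control pools 1 to 5. Every qKO pool lay above every control pool, with a gap of 42.2 CPM between the nearest pools. The means were 207 ± 9.75 CPM in qKO and 130.3 ± 17.4 CPM in control pools (SD, n = 5 each). This was a log2 fold change of 0.67 (SE 0.09, 95% confidence interval 0.47 to 0.87, adjusted p = 0.000342 by edgeR), or 1.59-fold. Among all genes tested, 18% had genotypes that did not overlap, 9.2% with qKO higher. The rise was present in both pool sets, at 0.45 on the log2 scale in pools 1 and 2 (adjusted p = 0.00376, edgeR) and 0.79 in pools 3 to 5 (adjusted p = 5.52e-05, edgeR), where 21.4% and 41.3% of all genes passed, 11.2% and 20.1% with qKO higher. Whether these 2 values differ was not tested. With summed pool sets the log2 fold change of fn1a was 0.59 and its adjusted p 0.115 (edgeR).

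The other copy, fn1b (ENSDARG00000006526), had 536, 543, 485, 435 and 456 CPM in qKO pools 1 to 5, against 669.5, 699, 599, 612 and 498 CPM in control pools 1 to 5. The lowest control pool (pool 5) lay below qKO pools 1 and 2, and the other 3 qKO pools lay below all controls. The means were 491 ± 47.9 CPM in qKO and 616 ± 77.3 CPM in control pools (SD, n = 5 each). This was a log2 fold change of -0.33 (SE 0.10, 95% confidence interval -0.55 to -0.10, adjusted p = 0.0354 by edgeR). Within the pool sets it was -0.34 and -0.35 (adjusted p = 0.0217 and 0.0128, edgeR). This call was lost without any 1 of qKO pools 3, 4 and 5 and control pools 2 and 4 (adjusted p of 0.0587 to 0.0766, edgeR). It was also lost with scaling by library totals alone (log2 fold change -0.25, adjusted p = 0.083, edgeR), under which the median of all genes was 0.11.

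In mammals, hepatocytes release fibronectin into the plasma. Of the 10 listed liver markers, 5 were lower in qKO and the other 5 did not pass (edgeR), and their summed level was 6100.2 to 8145 CPM in qKO pools and 7446 to 13059 CPM in control pools. In whole larvae, fewer cells of a type and less RNA per cell cannot be told apart. Of the 9 notochord markers, 3 were higher and 1 lower, with summed levels of 860.0 to 1099 CPM in qKO and 738 to 865 CPM in control pools. Of the 12 fibroblast markers, 2 were higher and 1 lower, with summed levels of 1422 to 1623 CPM in qKO and 1298 to 1503 CPM in control pools. Across all genes tested, 13.4% were called higher and 12.5% lower in qKO (edgeR). No marker of these lists was at 0 in all pools. The most counted genes weigh most in these sums, so they are not levels of the tissues. In qKO and control pools, apoa1b averaged 3186 and 4553 CPM, and apoa2 2317 and 2894 CPM. Likewise col9a1b averaged 405 and 314 CPM, and col5a1 524 and 498 CPM. The liver sum covers 11 gene entries, of which 10 were tested. The part of these tissues in the changes of fn1a, fn1b and postna was not tested.

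Because both copies are read in the same library, their ratio does not depend on library scaling, and its change does not depend on gene length. The log2 ratio of fn1a to fn1b was -1.35, -1.51, -1.20, -1.003 and -1.14 in qKO pools 1 to 5, against -2.17, -2.27, -2.19, -2.52 and -2.05 in control pools 1 to 5. Every qKO pool lay above every control pool. Of the fibronectin counts, fn1a held 26.0% to 33.3% in qKO pools and 14.8% to 19.4% in control pools. The ratio averaged -1.24 ± 0.20 in qKO and -2.24 ± 0.18 in control pools (SD, n = 5 each), a difference of 1.00. The two-sided exact permutation test gave p = 0.00794, the smallest that 5 against 5 allows, and 0.0159 after adjustment over 4 pairs of copies. How many ratios of other gene pairs separate the genotypes was not counted, and 18% of single genes did. The ratio also carries the changes of fn1a and fn1b given above. The 2 levels added together were 698 ± 41.8 CPM in qKO and 746 ± 89.5 CPM in control pools (SD, n = 5 each). These sums overlapped, at 651 to 745.5 CPM in qKO and 618 to 844 CPM in control pools. Without correction for gene length they are not a measure of total fibronectin transcripts.

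**Figure D2:**
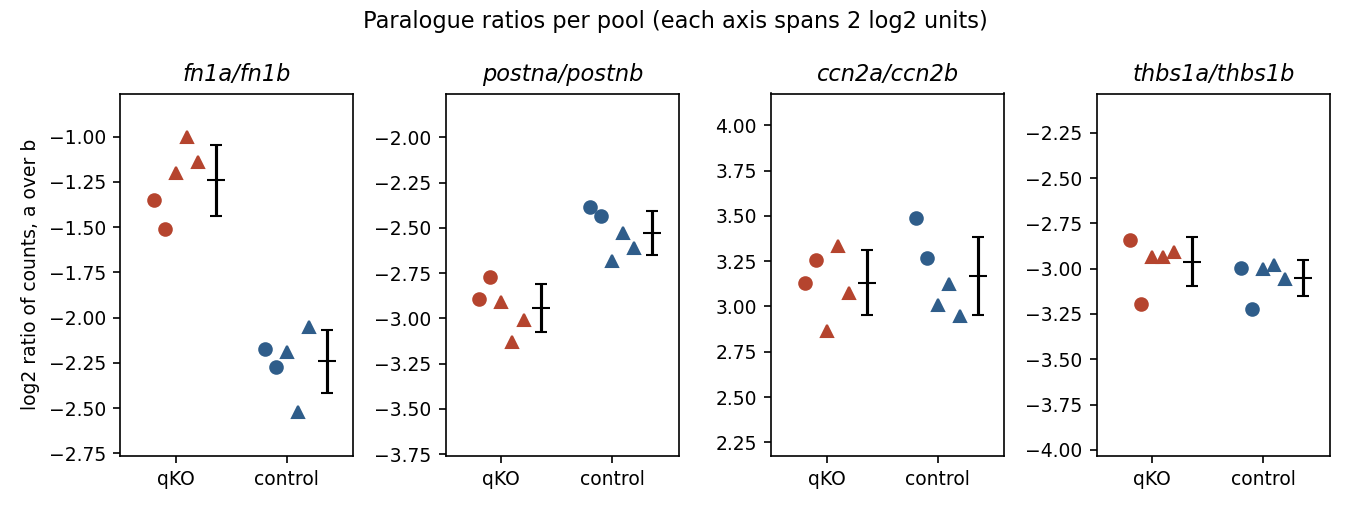
Log2 ratio of the counts of copy a to copy b (vertical axes, each spanning 2 log2 units) in qKO and control pools; circles are pools 1 and 2, triangles pools 3 to 5, and bars the mean ± SD of 5 pools. The genotypes are separate for fn1a/fn1b (difference 1.00) and postna/postnb (-0.42) and overlap for ccn2a/ccn2b and thbs1a/thbs1b. How many ratios of other gene pairs separate the genotypes was not counted.

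Periostin is a matricellular protein with fasciclin domains that is made by fibroblasts, heart valves and bone-forming tissue in mammals. The level of postna (ENSDARG00000043806) was 99.7, 102, 92.8, 87.3 and 81.8 CPM in qKO pools 1 to 5, against 122, 118, 116, 108 and 121 CPM in control pools 1 to 5. All qKO pools lay below all control pools, by a margin of 6.32 CPM at the nearest. Of all genes tested, 18% had no overlap between genotypes in either direction. The means were 92.7 ± 8.31 CPM in qKO and 117 ± 5.56 CPM in control pools (SD, n = 5 each). This was a log2 fold change of -0.34 (SE 0.08, 95% confidence interval -0.50 to -0.17, adjusted p = 0.00676 by edgeR). Within pools 1 and 2 it was -0.25 (adjusted p = 0.054, edgeR), and within pools 3 to 5 it was -0.43 (adjusted p = 0.00129, edgeR). With summed pool sets the adjusted p of postna was 0.328 (edgeR).

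The second periostin copy, postnb (ENSDARG00000104267), ranged from 658 to 764 CPM in qKO and from 622 to 743 CPM in control pools. The log2 fold change was 0.07 (SE 0.09, 95% confidence interval -0.11 to 0.26, adjusted p = 0.556 by edgeR), an interval without a fall as large as that of postna. The log2 ratio of postna to postnb was -2.94 ± 0.13 in qKO and -2.53 ± 0.12 in control pools (SD, n = 5 each). The difference of -0.42 had p = 0.00794 by the exact permutation test, the smallest that 5 against 5 allows. It was 0.0159 after adjustment over the 4 pairs. The share of periostin counts in postna was 10.3% to 12.8% in qKO pools and 13.5% to 16.0% in control pools, with no overlap. This ratio carries the fall of postna given above and is not a separate result. How many ratios of other gene pairs separate the genotypes was not counted, and 18% of single genes did.

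TGFBI is the other fasciclin-domain member and is named for its induction by TGF-beta in mammalian cells. Levels of tgfbi (ENSDARG00000071586) were 353 ± 28.7 CPM in qKO and 358 ± 19.0 CPM in control pools (SD, n = 5 each). The genotypes overlapped, at 314 to 385 CPM in qKO and 340.2 to 382 CPM in control pools. Of the qKO pools, 1 lay above and 2 lay below all controls. The log2 fold change was -0.02 (SE 0.08, adjusted p = 0.891 by edgeR), and its 95% confidence interval, -0.19 to 0.15, did not reach the size of the fn1a change. The value was 0.11 within pools 1 and 2 and -0.14 within pools 3 to 5 (adjusted p = 0.441 and 0.205, edgeR).

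CCN2 is a classical readout of TGF-beta in cultured mammalian cells, and it is also induced by the mechanically regulated coactivators YAP and TAZ. The level of ccn2a (ENSDARG00000042934) was 118, 93.6, 76.1, 87.6 and 79.2 CPM in qKO pools 1 to 5, against 109.6, 103, 83.5, 89.0 and 82.6 CPM in control pools 1 to 5. The genotypes overlapped, with 1 qKO pool above and 2 qKO pools below all controls, and in both genotypes the 2 highest pools were pools 1 and 2. The log2 fold change was -0.04 (SE 0.12, 95% confidence interval -0.31 to 0.22, adjusted p = 0.837 by edgeR). The copy ccn2b (ENSDARG00000104292) stood at 10.4 ± 1.85 CPM in qKO and 10.3 ± 0.403 CPM in control pools (SD, n = 5 each). Its log2 fold change was -0.00 (SE 0.11, 95% confidence interval -0.25 to 0.24, adjusted p = 0.986 by edgeR). The ccn2b pools were more spread in qKO (8.67 to 13.5 CPM) than in controls (9.74 to 10.7 CPM), and the difference in spread was not tested. The ratio of the 2 ccn2 copies differed by -0.04 between genotypes on the log2 scale (exact permutation p = 0.77, also after adjustment).

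Thrombospondin 1 binds many matrix proteins and, in mammals, can release active TGF-beta from its latent complex. The level of thbs1a (ENSDARG00000103775) was 51.4, 37.3, 33.3, 36.3 and 34.3 CPM in qKO pools 1 to 5, against 36.1, 29.9, 32.3, 30.2 and 30.7 CPM in control pools 1 to 5. Of the qKO pools, 3 lay above all controls, and pool 1 was far above the rest. The log2 fold change was 0.27 (SE 0.11, 95% confidence interval 0.03 to 0.52). It did not pass after adjustment over all genes (unadjusted p = 0.0292, adjusted p = 0.0885, edgeR). It did pass with scaling by library totals (0.35, adjusted p = 0.0305, edgeR). Within pools 1 and 2 thbs1a was at 0.42 (adjusted p = 0.0882, edgeR) and within pools 3 to 5 at 0.12 (adjusted p = 0.204, edgeR). Without qKO pool 1 the value was 0.15 (adjusted p = 0.17, edgeR).

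The level of thbs1b (ENSDARG00000010785) was 368, 342, 255, 278 and 257 CPM in qKO pools 1 to 5, against 288, 279.9, 259, 238 and 255 CPM in control pools 1 to 5. Only qKO pools 1 and 2 lay above all controls. The log2 fold change was 0.18 (SE 0.11, 95% confidence interval -0.06 to 0.42, adjusted p = 0.247 by edgeR). It was 0.32 within pools 1 and 2 (adjusted p = 0.0284, edgeR) and 0.03 within pools 3 to 5 (adjusted p = 0.749, edgeR), a difference that was not tested. Without qKO pool 1 the value for all pools was 0.10 (adjusted p = 0.509, edgeR). The ratio of thbs1a to thbs1b was 0.09 higher in qKO on the log2 scale, with overlapping pools (exact permutation p = 0.278, and 0.37 after adjustment over the 4 pairs).

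**Figure D3:**
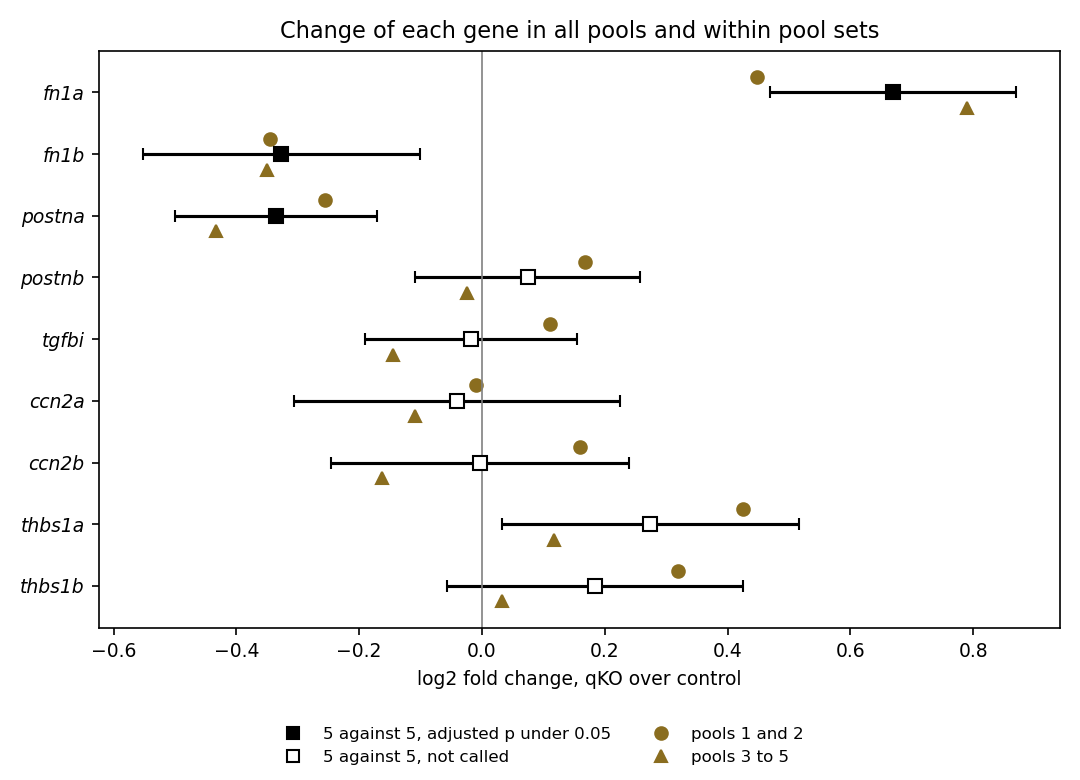
Log2 fold change, qKO over control (horizontal axis), for each of the 9 genes. Squares give 5 against 5 pools with 95% confidence intervals, filled where the adjusted p was under 0.05 (fn1a at 0.67, fn1b at -0.33, postna at -0.34); circles and triangles give the value within pools 1 and 2 and within pools 3 to 5.

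Relatives and partners of the 9 genes, taken from lists chosen with earlier results of these data known, had calls in both directions. With pool sets summed, 5 of the 27 such genes and tissue markers named below kept their call (fabp10a, cryaa, hp, col8a1a and skilb; edgeR). Of the 7 other CCN genes tested, ccn6 was higher in qKO (log2 fold change 0.57) and ccn4b and ccn1 were lower (-0.79 and -0.55), with a list median of -0.14. The call for ccn1 was lost without any 1 of qKO pools 3 and 5 and control pools 1, 2 and 5, and that for ccn4b within pools 1 and 2 (-0.53 there, -1.02 within pools 3 to 5). Of 7 other thrombospondin genes, thbs2a and thbs3b were higher (0.42 and 0.49) and thbs4a was lower (-0.74), with a median of 0.20. Within pools 1 and 2 neither thbs2a (0.22) nor thbs3b (0.12) passed, whereas within pools 3 to 5 both did (0.51 and 0.68). Of 11 genes known to respond to YAP and TAZ, ccn1, ankrd1a and amotl2a passed, each lower (-0.55, -0.41 and -0.28), with a median of -0.14. This list shares genes with the other CCN genes, ccn1 among them, and both medians are the value of the same shared gene. The 2 lists are therefore not separate results. The call for amotl2a was lost without any 1 of qKO pools 3, 4 and 5 and control pools 2 and 4, and that for ankrd1a without control pool 4 or within pools 1 and 2 (-0.48). Both were also lost with library totals (amotl2a -0.20, ankrd1a -0.33). All values are from the edgeR fit over all genes, in which 25.8% passed, 13.4% higher and 12.5% lower in qKO.

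Of 20 other genes described as TGF-beta responsive, 4 were higher and 3 lower, with a median of -0.02 (edgeR). The Smad corepressor gene skilb stood at 17.6 ± 0.887 CPM in qKO and 9.77 ± 1.96 CPM in control pools (SD, n = 5 each; log2 fold change 0.85, adjusted p = 0.000516, edgeR). The cell cycle inhibitor gene cdkn1a was higher by 1.70, at 21.8 ± 12.6 CPM in qKO and 6.64 ± 1.42 CPM in control pools (SD, n = 5 each). Its qKO level was 33.6 to 37.3 CPM in pools 1 and 2 and 10.4 to 14.1 CPM in pools 3 to 5, and its log2 fold change was 2.73 and 0.73 within these sets. The smooth muscle gene tagln was lower (-0.51), but did not pass within pools 1 and 2 (-0.17; -0.76 within pools 3 to 5). Of 13 tested genes for TGF-beta ligands, receptors, latency proteins and Smad partners, 1 passed, the ligand gene tgfb3, which was higher (0.27), a call lost without any 1 of qKO pools 4 and 5 and control pool 1, and within pools 3 to 5 (0.20). Among 14 receptor genes for these matrix proteins, the 3 that passed were itga5, itgb1b and itgb1a, each higher (0.59, 0.35 and 0.23). Across all genes tested, 25.8% passed in either direction, 13.4% with qKO higher. The 3 of 14 is therefore not shown to be particular to these receptors. Integrin alpha 5 pairs with beta 1 as the main fibronectin receptor of vertebrate cells. The level of itga5 was 19.8 to 26.2 CPM in qKO pools and 13.0 to 17.5 CPM in control pools, without overlap (adjusted p = 0.00161, edgeR). Among all genes tested, 9.2% were higher in qKO without overlap. The log2 fold change of itga5 was 0.37 within pools 1 and 2 and 0.68 within pools 3 to 5, and it passed in both. Within these sets 11.2% and 20.1% of all genes passed with qKO higher. By contrast, itgb1b did not pass within pools 1 and 2 (0.18, and 0.42 within pools 3 to 5). The call for itgb1a was lost in 15 of 22 alternatives, among them without any 1 of qKO pools 1 to 4 and control pools 1, 3, 4 and 5.

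Markers of tissues that could hold these transcripts were read beside them, where 13.4% of all genes tested passed higher and 12.5% lower in qKO. Of the fibroblast markers, pcolcea and fap were higher (0.44 and 0.25) and fbln1 was lower (-0.43). The call for fap was lost without any 1 of qKO pools 3, 4 and 5 and control pools 1, 4 and 5, with the replicate block, and within pools 1 and 2 (0.094). That for pcolcea was lost within pools 3 to 5 (0.26; 0.68 within pools 1 and 2), and that for fbln1 with library totals (-0.35). Of the notochord markers, col8a1a and epyc were higher (0.67 and 0.35) and ntd5 was lower (-0.43), though ntd5 did not pass within pools 1 and 2 (-0.087; -0.70 within pools 3 to 5). Of 9 tendon markers, 1 passed, mkxa, which was higher (0.35). Its call was lost without qKO pool 4, with the replicate block (adjusted p = 0.0554, edgeR) and within pools 1 and 2 (0.16). The summed level of the tendon markers was 585 to 865 CPM in qKO and 689 to 861 CPM in control pools. Of the liver markers, hp, fabp10a and tfa were lower (-1.33, -1.98 and -0.64). Within pools 1 and 2 tfa did not pass (-0.19; -0.98 within pools 3 to 5), and fabp10a was at -1.30 (-2.47 within pools 3 to 5). Of the larval organ markers, 2 were higher and 4 lower, and hbae3 was higher by 0.89 whereas cryaa was lower (-1.07) (edgeR). The call for cryaa was lost within pools 1 and 2 (-0.64; -1.38 within pools 3 to 5), and that for hbae3 within both sets (0.97 and 0.80).

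**Figure D4:**
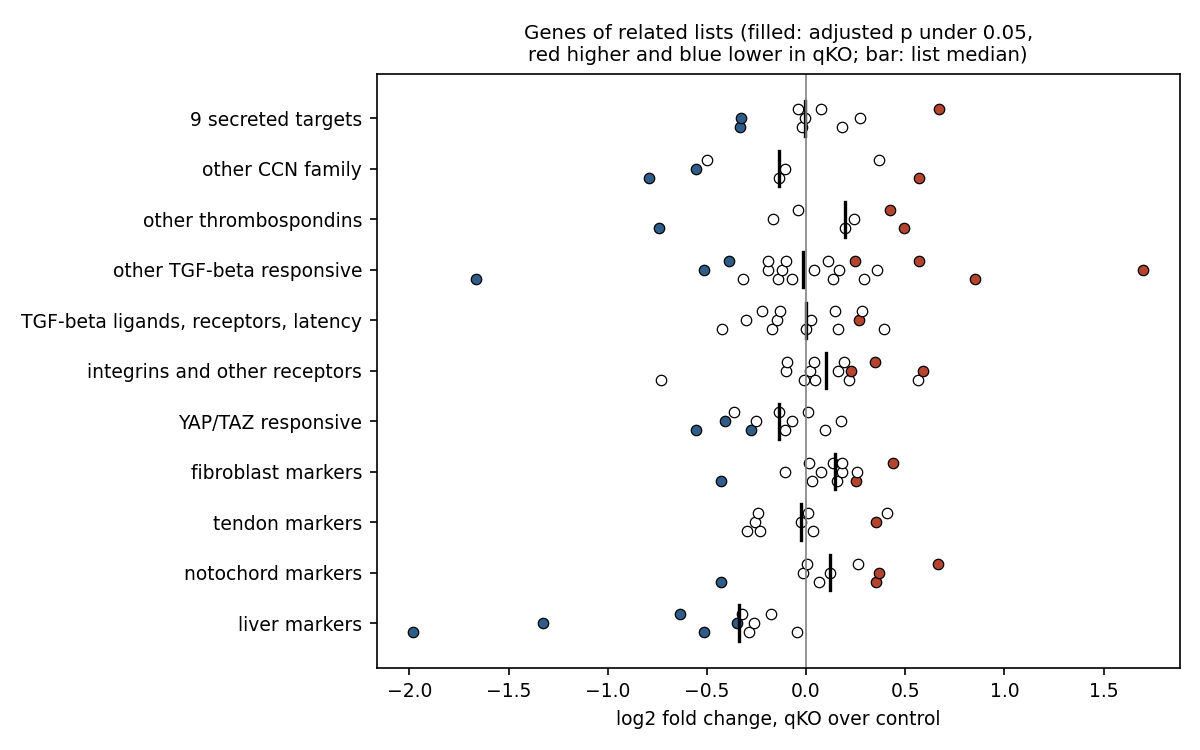
Log2 fold change, qKO over control (horizontal axis), of the tested genes of each list (rows); filled points passed an adjusted p under 0.05, red higher and blue lower in qKO, and the bar is the list median. The 9 secreted targets have a median of -0.00, the liver markers -0.34 and the other thrombospondin genes 0.20.

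The genes whose pattern over the 10 pools lay nearest to each called gene were found among 20115 other genes with a mean of at least 1 CPM. The measure was the root-mean-square difference of log2 CPM centred on the mean of each gene. Nearest to fn1a were mier2 (0.0849) and si:cabz01032454.3 (0.0949). Nearest to fn1b were lrtm1 (0.0629) and FQ377903.3 (0.068), and nearest to postna were spint1a (0.0443) and map4k2 (0.0611). On this measure fn1a and fn1b differed from each other by 0.527, and fn1b and postna by 0.135. The nearest genes were picked as the smallest of 20115 differences, so their values are not comparable with those of fixed pairs. A typical difference between genes was not computed.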

How the data were processed

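The authors deposited raw counts of reads per gene, as whole numbers, for 10 libraries prepared from total RNA with a stranded kit (TruSeq), per the labels' protocols. The submitters' processing notes name FastQC 0.11.9, Trim Galore 0.6.6, featureCounts, Subread 2.0.0, MultiQC 1.9 and build GRCz11, without their roles. The aligner, the annotation release, the use of strand and the treatment of reads shared by gene copies are not given in the sources used here, so reads that fit both copies of a gene may be divided or lost.

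Counts were filtered with filterByExpr, scaled by TMM and compared in edgeR 4.0.16 (R 4.3.3) with the robust quasi-likelihood test, without covariates, and Benjamini-Hochberg adjustment over all genes. The script was checked on simulated data with the same spread for all genes and no pool sets, which does not bear on the calls given here. Standard errors and 95% confidence intervals come from the test statistic. Ratios of gene copies (0.5 added to each count) were compared by two-sided exact permutation tests. A replicate number was not taken to pair libraries, since same-numbered pools did not deviate together (correlations of deviations from -0.21 to -0.00). The gap between pool sets enters these deviations, so the check cannot exclude pairing. No 2 libraries of the same genotype agreed within sampling noise. Nothing in the labels says whether pools came from separate clutches, so p-values measure the spread between these pools.

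The members, the lists and the pool sets were chosen with earlier results of these data known. Named besides the 9 genes and the 4 targeted genes were at most 3 called genes of each list, those with the lowest p, and the 2 nearest patterns of each called gene. Alternatives were other scalings, filters and tests (DESeq2 1.42.0, limma-voom 3.58.1), the replicate number as a block, pool sets alone or summed, and each library left out.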

Additional observations from a re-analysis of the deposited data

Results flagged for a closer look

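In 34 groups of 5 pools (the 9 genes, the 4 targeted genes and the 4 ratios, in each genotype), 2 values stood apart from the other 4 by Dixon's criterion, and chance alone flags about 1 in 20 groups. The first was thbs1a in qKO pool 1, at 51.4 CPM beside 33.3 to 37.3 CPM in the other qKO pools. The second was the log2 ratio of thbs1a to thbs1b in qKO pool 2, at -3.19 beside -2.94 to -2.84. Without that pool the ratio was 0.15 higher in qKO (adjusted p = 0.0212, exact permutation test). With all pools these values were 0.09 and 0.37. That pool was picked for standing apart, so no conclusion is drawn from this p. Control pool 2 was also low, at -3.23 beside -3.05 to -2.98 in the other control pools. Without control pool 2 the ratio was 0.046 higher in qKO (adjusted p = 0.762, exact permutation test).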

How the results depend on the processing

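The direction of fn1a, fn1b and postna was kept in all 22 alternatives run, over ranges of 0.45 to 0.79, -0.40 to -0.25 and -0.43 to -0.25. Their calls were kept in 21, 15 and 20. The number of genes called was 5910, against 9551 within pools 3 to 5, 700 with pool sets summed and 2797 at an adjusted p under 0.01. Of the 9 genes, 1 was called higher and 2 lower; this became 2 and 1 with library totals (thbs1a gained, fn1b lost) and within pools 1 and 2 (thbs1b gained, postna lost), 0 and 0 with sets summed, and 1 and 1 at the stricter threshold. Leaving out 1 library gave 4309 to 6363 genes, 1 member higher and 1 to 2 lower.

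Uncalled genes near 0 changed sign. With library totals tgfbi, ccn2a and ccn2b were at 0.066, 0.032 and 0.079. Within pools 1 and 2 tgfbi and ccn2b were at 0.11 and 0.16, and within pools 3 to 5 postnb was at -0.024. Without 1 library each, tgfbi ranged from -0.055 to 0.0065, ccn2a from -0.15 to 0.0019 and ccn2b from -0.11 to 0.030. The causes were not tested. The difference in log2 ratio, qKO minus control, ranged from -0.0898 to 0.045 for ccn2a/ccn2b and from 0.046 to 0.15 for thbs1a/thbs1b. It ranged from 0.93 to 1.07 for fn1a/fn1b and from -0.46 to -0.37 for postna/postnb.

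With the replicate number as a block, 4543 genes and the same 3 members were called. Pairing gave the same ratio differences, 1.00 for fn1a/fn1b, -0.42 for postna/postnb and 0.089 for thbs1a/thbs1b, with adjusted p = 0.0833 for each of these 3 in the exact sign-flip test over 5 pairs, which cannot go below 0.0625.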

Other observations

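The pool sets ran through these genes in a similar way in both genotypes for ccn2a. Its log2 level was 0.38 higher in pools 1 and 2 than in pools 3 to 5 of the qKO larvae, and 0.32 higher in the control larvae. For fn1b these differences were 0.24 in qKO and 0.27 in control pools. For fn1a they were -0.08 in qKO and 0.30 in control pools, and for thbs1b 0.43 and 0.18. Of the 9 genes, 8 had a higher log2 fold change within pools 1 and 2 than within pools 3 to 5. The exception was fn1a, and for fn1b the 2 values were nearly equal (-0.344 and -0.350). Of the 10 pools, qKO pool 1 was the highest for 5 genes (tgfbi, ccn2a, ccn2b, thbs1a and thbs1b). These are values without a test, and the sets were found in the same libraries. The shares of all genes tested with these orders were not counted, so neither count is shown to be particular to the 9 genes.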
